A study of Mus musculus with 6 samples.

Results

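Egr1, Egr2, Egr3, Nr4a1, Nr4a2, Nr4a3, Nfatc1, Nfatc2, Nfatc3 and Tox are transcription factor genes that act downstream of the T cell receptor (TCR). They were picked by gene name from a table of 29199 genes, in which all 10 were found, and they were measured in regulatory T cells (Treg) that had shared a graft recipient with conventional CD4+ T cells (Tconv) of either genotype. Nr4a3 showed the largest difference of the 10, with a mean 44.1% lower in Treg with HP1α KO Tconv than in Treg with WT Tconv. Nr4a2 was 23.1% lower and Egr1 19.9% lower, and for these 3 genes the libraries of the 2 groups did not overlap, as for 23% of all genes tested. The other 7 genes, which include Nr4a1 and all 3 of the NFAT genes, overlapped between the groups. No gene of the 10 was called by edgeR at an adjusted p under 0.05, and DESeq2 called Nr4a3 alone, against 3.03% of the genes it tested that were called lower.

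The libraries came from a bone marrow graft model, in which lethally irradiated B6 hosts received B6 and semi-allogeneic B6D2F1 marrow together with naive Tconv and expanded Treg. The Treg were WT in both groups. Their donors were B6 Foxp3-Thy1.1 mice, in which the Thy1.1 marker follows Foxp3. The cells were stimulated for 3 days with anti-CD3/CD28 beads, IL-2 and TGFb, then kept for 5 to 7 days without TCR stimulation before transfer. The groups, Treg with WT Tconv and Treg with HP1α KO Tconv (3 libraries each), thus differed in the cells that surrounded the Treg. HP1α is a heterochromatin protein, and the KO Tconv came from Hp1a-/- mice, bred from heterozygotes whose floxed allele had been excised by a CMV-cre transgene, so the deletion was not restricted to T cells. Mice were 6 to 12 weeks old, and WT and mutant animals were littermates of matched sex. At 3 weeks after the graft, splenic Treg were purified by flow cytometry as H-2Kb+H-2Kd- CD4+ cells positive for Thy1.1. Whether a library held cells of 1 host or of several was not given in the sources used here, so the p-values measure the spread between these libraries. No resting or freshly stimulated Treg were sequenced in these libraries, so induction of the 10 genes through the TCR was not measured.

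The libraries held 87421755 to 119078882 counts and 22573 to 24626 detected genes. The 10 genes were read at 1028 to 31838 counts per library, so counting error was at most 3.12% of a value and covered counting alone. The 7 Treg markers (Foxp3, Il2ra, Ctla4, Ikzf2, Cd4, Cd3e and Thy1) summed to 4135 to 4951 CPM (counts scaled to a library total of 1000000), and all were above 0. Treg with WT Tconv replicate 3 stood apart, with red cell markers summing to 6288 CPM against 395 to 730 in the other libraries and neutrophil markers to 1975 against 44.9 to 239. Treg with HP1α KO Tconv replicate 2 had the lowest Foxp3, at 154 CPM against 200 to 252, and the lowest Il2ra, at 121 CPM against 161 to 199. Log2 fold changes of the 10 genes that rest on either library are given with and without it, while ratios between genes and the search for similar genes used all libraries. In sorted bulk RNA, fewer cells that express a gene and less of its RNA per cell cannot be told apart.

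Engagement of the TCR raises intracellular calcium, which activates the phosphatase calcineurin, and calcineurin dephosphorylates NFAT proteins so that they enter the nucleus. Calcium and the Ras-MAP kinase route together drive the immediate early genes of the Egr family, which are zinc finger factors, and of the Nr4a family, which are orphan nuclear receptors. In Treg, Nr4a factors are known to help maintain Foxp3 and lineage identity, Egr2 and Egr3 restrain T cell activation, and Tox is a nuclear factor best known for sustaining exhausted CD8 T cells after long stimulation.

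The promoters of Egr2 and Nr4a3 are shown because they carried matches to the elements by which serum response factor (SRF) and cAMP response element (CRE) binding proteins reach early genes. Each sequence is the 250 bases before the start of the canonical transcript on GRCm39, plus strand, with no base in an annotated exon; that of Egr2 lies within the span of the gene because other transcripts start earlier. Capitals mark the CArG box, the core of the serum response element, and the CRE half-site TGACG or its reverse complement CGTCA.
Egr2 chr10:67373442-67373691: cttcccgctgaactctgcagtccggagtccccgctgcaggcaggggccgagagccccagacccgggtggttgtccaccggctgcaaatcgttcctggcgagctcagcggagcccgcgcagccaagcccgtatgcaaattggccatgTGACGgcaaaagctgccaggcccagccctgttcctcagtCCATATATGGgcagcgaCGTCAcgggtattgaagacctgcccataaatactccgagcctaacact
Nr4a3 chr4:48044903-48045152: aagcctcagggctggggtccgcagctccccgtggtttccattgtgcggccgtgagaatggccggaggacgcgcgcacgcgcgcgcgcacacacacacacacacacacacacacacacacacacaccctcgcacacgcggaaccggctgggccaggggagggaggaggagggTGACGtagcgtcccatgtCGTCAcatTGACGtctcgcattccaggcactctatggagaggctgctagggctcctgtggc

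Egr2 carried a CArG box, CCATATATGG, 65 bases before its start. A CArG box occurred in 304 of 21770 promoters of protein-coding genes (1.4%) and in 1 of the 9 promoters of these genes that were read. The CRE half-site, read on both strands, occurred in 18% of all promoters and in 4 of the 9, namely Egr1, Egr2, Nr4a1 and Nr4a3. Nr4a3 held 3 of them, 79, 61 and 53 bases before its start. The NFAT core GGAAA, not marked in capitals, occurred in 58% of all promoters and in 6 of the 9. The full CRE TGACGTCA (1.69% of promoters), the EGR site GCGTGGGCG (0.547%) and the Nr4a element AAAGGTCA (1.19%) were in none of the 9 windows, which says nothing of sites elsewhere. A window without a CArG box, a CRE half-site or an NFAT core likewise says nothing of sites elsewhere near that gene. These matches describe letters and are not binding sites measured in Treg.

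**Figure D1:**
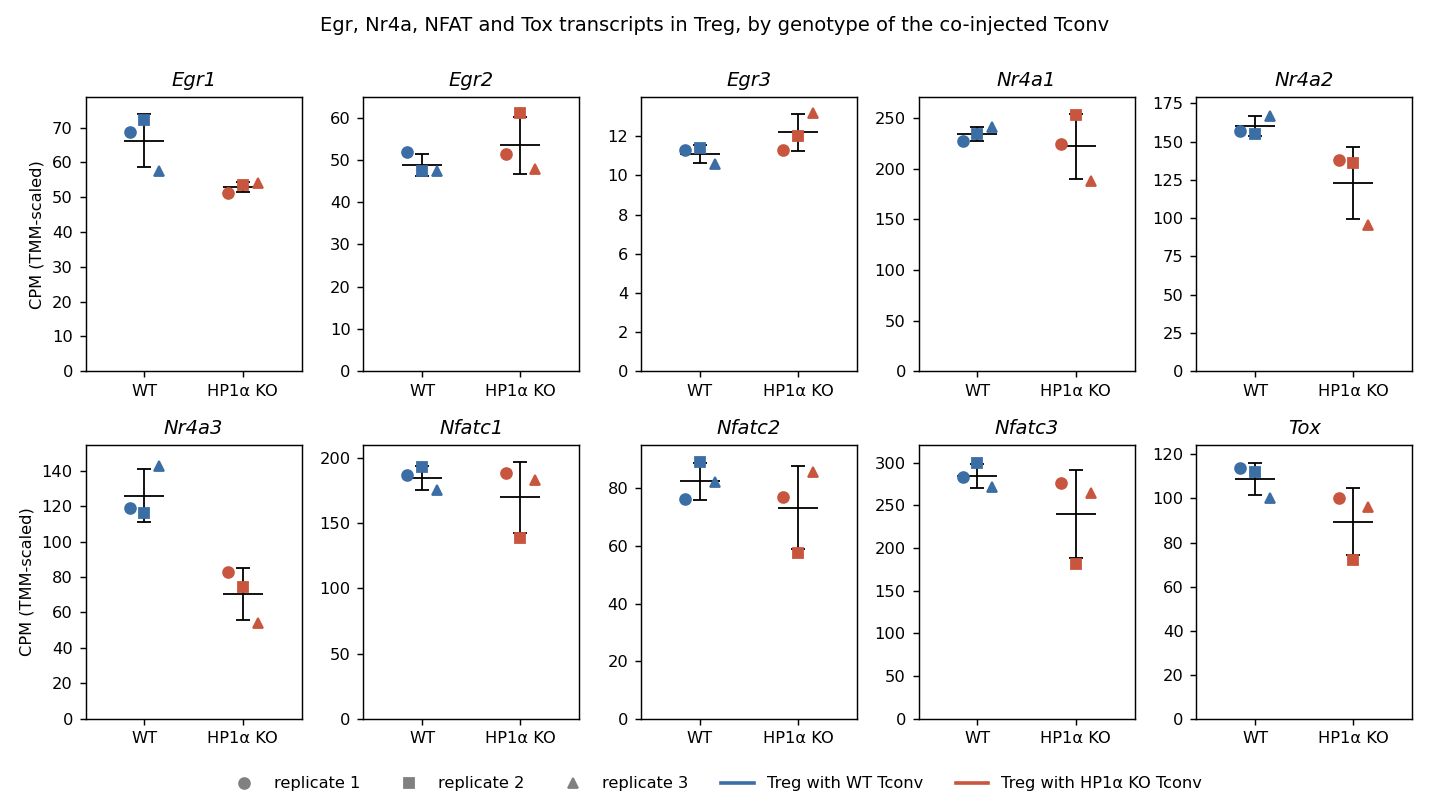
Level of each of the 10 genes (TMM-scaled CPM, axes from 0) in each library, with Treg from hosts given WT Tconv in blue and those from hosts given HP1α KO Tconv in red; symbols mark the replicate number and bars the mean ± SD. All 3 red points lie below all 3 blue points for Nr4a3, Nr4a2 and Egr1, and replicate 2 of the KO group is the lowest library for Nfatc1, Nfatc2, Nfatc3 and Tox.

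The Nr4a genes were compared first, as the family with the largest differences. Nr4a3 encodes NOR1, an orphan nuclear receptor that binds DNA without a known natural ligand, and its gene lies at chr4:48045153-48086447 on the plus strand. Its level was 119, 116 and 143 CPM in Treg with WT Tconv replicates 1 to 3 and 82.7, 74.2 and 54.1 CPM in Treg with HP1α KO Tconv replicates 1 to 3. The highest KO library was at 71.4% of the lowest WT library. The group means were 126 ± 14.9 and 70.3 ± 14.7 CPM (SD, n = 3 each). EdgeR put the log2 fold change at -0.84 (SE 0.168, 95% confidence interval -1.24 to -0.44).

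Of the 18321 genes tested, Nr4a3 ranked 149 by p-value, with an unadjusted p of 0.00183 and a Benjamini-Hochberg adjusted p of 0.209 in edgeR. DESeq2 gave the same log2 fold change of -0.84 with an adjusted p of 3.18e-05. The call therefore depended on the tool: edgeR called 0 of 18321 genes (0% called), with 2656 (14.5%) at an unadjusted p under 0.05, whereas DESeq2 called 526 of 12097 (4.35%). Leaving out each library in turn moved the log2 fold change of Nr4a3 between -0.96 and -0.68. Without WT replicate 3, the highest library and the one rich in red cell and neutrophil transcripts, it was -0.74, and DESeq2 without that library gave an adjusted p of 0.00643. The part of the red cell and neutrophil transcripts in the result was not tested beyond this.

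Nr4a2, or NURR1, is the close relative of Nr4a3 and lies at chr2:56996842-57014331 on the minus strand. It measured 157, 155 and 167 CPM in the WT group and 138, 136 and 95.8 CPM in the KO group. The groups did not overlap, but KO replicates 1 and 2 lay close to the WT libraries and replicate 3 was well below all others. The log2 fold change was -0.38 (SE 0.136), and its unadjusted p of 0.0261 became 0.284 after adjustment in edgeR, against 0.0806 in DESeq2. Without KO replicate 3 it was -0.23.

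Nr4a1, or Nur77, is the member whose regulatory sequence drives reporters used to read TCR signal strength in mice. Its levels were 227, 234 and 241 CPM with WT Tconv and 224, 253 and 188 CPM with HP1α KO Tconv. The KO libraries fell on both sides of the WT libraries and their SD was 32.5 CPM against 7.06. The log2 fold change was -0.08, with a 95% confidence interval of -0.32 to 0.16 and an adjusted p of 0.764 in edgeR, and it was 0.03 without KO replicate 3 and -0.18 without KO replicate 2. The gene spans chr15:101151980-101172681, and 6.02% of its exonic bases lie opposite Gm63180. The strand setting used for quantification was not given in the sources used here, so reads of these partners may not have been told apart.

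**Figure D2:**
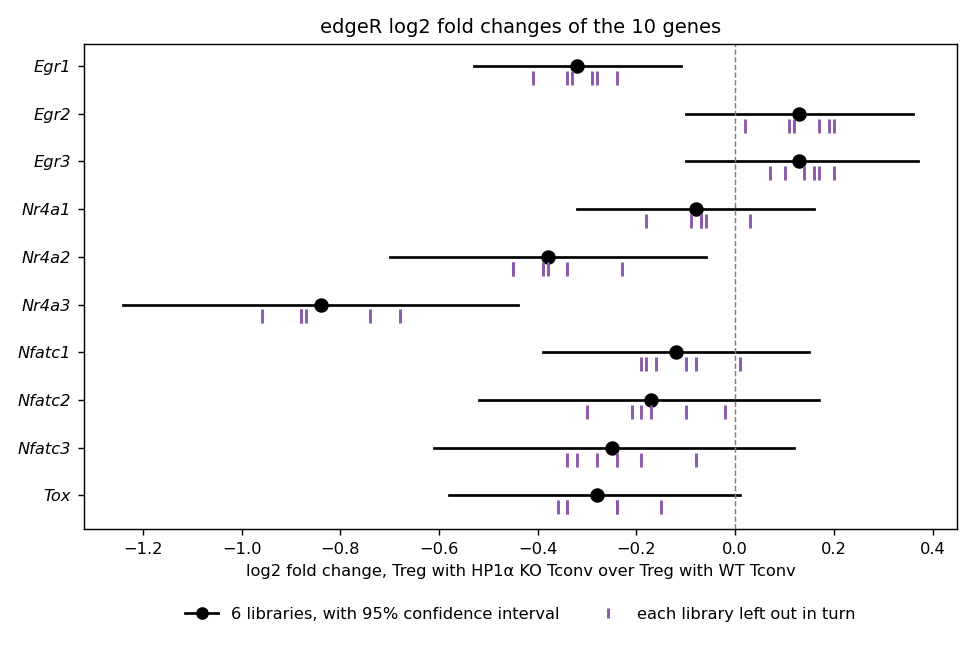
Log2 fold change of each gene in edgeR (horizontal axis), as the KO group over the WT group, drawn as a point with its 95% confidence interval; purple ticks give the value when each of the 6 libraries is left out in turn. The intervals of Nr4a3, Nr4a2 and Egr1 lie below 0, the others cross it, and ticks of Nr4a1 and Nfatc1 pass 0.

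The balance within the Nr4a family was read as a ratio of counts in the same library, in which the scaling of the library cancels. Nr4a3 over Nr4a1 was 0.522, 0.495 and 0.593 with WT Tconv and 0.369, 0.294 and 0.288 with HP1α KO Tconv. All KO libraries were below all WT libraries, and the mean log2 ratio differed by -0.77. Nr4a3 over Nr4a2 was 0.753, 0.747 and 0.853 against 0.6, 0.548 and 0.564, again without overlap. Nr4a2 over Nr4a1 was 0.694, 0.663 and 0.695 against 0.615, 0.536 and 0.51. For each of these 3 ratios the two-sided exact permutation test gave p = 0.1, the smallest p that 3 libraries against 3 allow, and 0.15 after adjustment over the 9 ratios examined, so no ratio could pass 0.05. The 9 ratios share genes with one another and with the comparisons of single genes, so they are not separate evidence. How often ratios of other gene pairs separate the groups was not computed, so the ratios without overlap have no background.

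Egr1 is the founding zinc finger gene of its family, induced within minutes of TCR or growth factor signals. It measured 68.7, 72.3 and 57.6 CPM in the WT group and 51.3, 53.6 and 54.1 CPM in the KO group. The groups were separate by a narrow margin, since the highest KO library reached 93.9% of the lowest WT library, and that lowest one was WT replicate 3. The means were 66.2 ± 7.66 and 53 ± 1.48 CPM (SD, n = 3 each). The log2 fold change was -0.32 (SE 0.0916), and its unadjusted p of 0.00769 became 0.221 after adjustment in edgeR and 0.0602 in DESeq2. Without WT replicate 3 it was -0.41 in edgeR, with an adjusted p of 0.38, and -0.42 in DESeq2, with an adjusted p of 0.00232. In edgeR it was -0.28 without WT replicate 1 and -0.24 without WT replicate 2, with an adjusted p of 0.447 for both.

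Egr2 and Egr3, whose products restrain T cell activation and are linked to anergy, were on the other side of 0. Egr2 spans chr10:67371305-67378018. Egr2 was at 51.8, 47.4 and 47.3 CPM with WT Tconv and at 51.4, 61 and 47.9 CPM with HP1α KO Tconv. Its log2 fold change of 0.13 (adjusted p = 0.583 in edgeR) came mainly from KO replicate 2, and was 0.02 without that library and 0.20 without KO replicate 3. Egr3 was at 11.3, 11.4 and 10.6 CPM against 11.3, 12 and 13.2 CPM, or 0.13 on the log2 scale (adjusted p = 0.579 in edgeR) with 0.07 without KO replicate 3 and 0.20 without KO replicate 1. Both 95% confidence intervals began at -0.10, and they ended at 0.36 for Egr2 and 0.37 for Egr3.

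Within the family, Egr1 over Egr2 was 1.33, 1.53 and 1.22 in Treg with WT Tconv and 0.998, 0.878 and 1.13 in Treg with HP1α KO Tconv. Egr1 over Egr3 was 6.07, 6.36 and 5.45 against 4.54, 4.47 and 4.1. Neither ratio overlapped between the groups (exact permutation p = 0.1 for both, adjusted 0.15). Egr2 over Egr3 overlapped, with 4.57, 4.17 and 4.48 against 4.55, 5.09 and 3.63 (exact permutation p = 0.9).

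**Figure D3:**
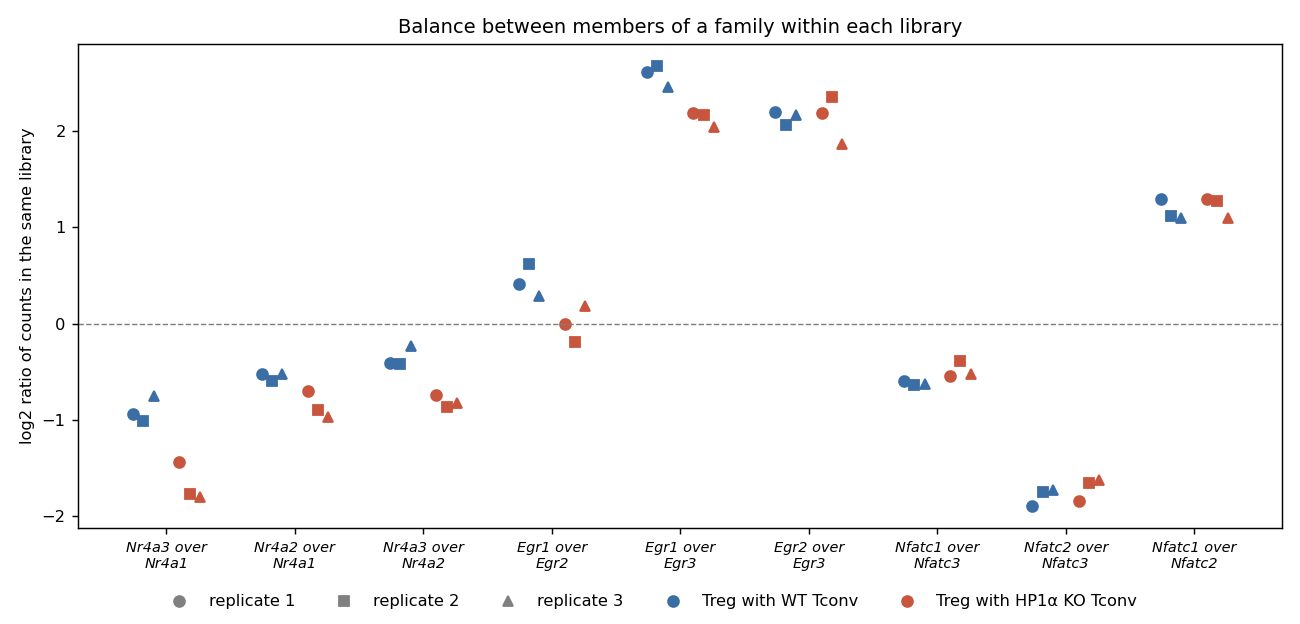
Log2 ratio of the counts of gene pairs of a family in each library (vertical axis), for Treg with WT Tconv (blue) and Treg with HP1α KO Tconv (red), with symbols for replicate numbers. The 3 Nr4a ratios and both Egr1 ratios are lower in every red library than in every blue one, Nfatc1 over Nfatc3 is higher, and the remaining 3 ratios overlap. Ratios of a family share genes, and the share of other gene pairs without overlap was not computed.

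The NFAT genes encode the calcineurin-dependent factors, which are regulated mainly by their location in the cell, and their transcripts showed no called difference. Nfatc3 was at 283, 300 and 272 CPM with WT Tconv and at 276, 181 and 264 CPM with HP1α KO Tconv. Nfatc1, the member whose short isoform is itself induced by NFAT, was at 187, 193 and 176 CPM against 189, 139 and 183 CPM. Nfatc2, or NFAT1, was at 76.3, 89.1 and 82.2 CPM against 76.9, 57.4 and 85.6 CPM. In all 3 genes, KO replicate 2 was the lowest of the 6 libraries and the other KO libraries lay among or close to the WT libraries.

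The log2 fold changes were -0.25 for Nfatc3, -0.17 for Nfatc2 and -0.12 for Nfatc1, and the adjusted p-values in edgeR were 0.521, 0.63 and 0.666. Without KO replicate 2 they were -0.08, -0.02 and 0.01. Nfatc2 was also at -0.30 without KO replicate 3 and at -0.10 without WT replicate 2, and Nfatc1 at -0.19 without KO replicate 1. KO replicate 2 also had the lowest Foxp3 and Il2ra (above), the lowest Cd3e, at 147 CPM against 188 to 221, and the lowest Cd4, at 688 CPM against 729 to 843. It thus was lowest for 4 of the 7 Treg markers, whose sum there, 4242 CPM, was within the range of the others, and its part in the NFAT values beyond the leave-out was not tested.

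The NFAT genes were also set against one another within each library. Nfatc1 over Nfatc3 was 0.66, 0.644 and 0.646 in the WT group and 0.684, 0.764 and 0.694 in the KO group, with every KO library higher (exact permutation p = 0.1, adjusted 0.15). Nfatc2 over Nfatc3 and Nfatc1 over Nfatc2 overlapped, with exact permutation p-values of 0.4 and 0.7. Nfatc2 lies at chr2:168318330-168443693 and Nfatc3 at chr8:106785472-106857175. Of the exonic bases of Nfatc3, 17.52% lie opposite Esrp2, but Esrp2 was read at 2 to 11 counts per library, against 18112 or more for Nfatc3.

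Tox, an HMG box factor gene at chr4:6686353-6991644 on the minus strand, was at 114, 112 and 100 CPM in Treg with WT Tconv and at 100, 72 and 96.2 CPM in Treg with HP1α KO Tconv. The lowest WT and the highest KO library met at about the same level, and KO replicate 2 was the lowest, as for the NFAT genes. The log2 fold change was -0.28, with a 95% confidence interval of -0.58 to 0.01 and an adjusted p of 0.368 in edgeR and 0.201 in DESeq2. Without KO replicate 2 it was -0.15.

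Taken as a list, 8 of the 10 genes had a log2 fold change below 0, against 51.5% of all genes tested, and their median was -0.21 against -0.01. Without KO replicate 2 the median was -0.11 and Nfatc1 turned to 0.01. The median size of the change was 0.209 for the 10 genes and 0.169 for all genes. At an unadjusted p under 0.05, 3 of the 10 were lower in edgeR, against 7.52% of all genes, and none was higher, against 6.98%. The groups did not overlap, with the KO group lower, for 3 of the 10 and for 11.6% of all genes. With 10 genes chosen by name, these counts describe the list and carry no test. The genes also followed different libraries: KO replicate 3 was the lowest for all 3 Nr4a genes, whereas KO replicate 2 was the lowest for the 3 NFAT genes and Tox.

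Levels of different genes were set side by side per kb of exon. On the union of annotated exons, Nfatc1 led with a mean of 23.3 CPM per kb over the 6 libraries, followed by Nr4a1 at 20.9, Nfatc3 at 17.5, Nr4a2 at 17.2, Nr4a3 at 16.4, Egr2 at 15, Egr1 at 13.3 and Tox at 12.8. Each of these 8 overlapped its neighbour in the order across libraries. Nfatc2 at 7.27 and Egr3 at 2.47 CPM per kb were apart from the gene above them. Nr4a3 held 21 ± 2.49 CPM per kb in the WT group, beside 21.5 ± 0.647 for Nr4a1, and 11.7 ± 2.45 in the KO group, beside 20.3 ± 2.98 (SD, n = 3 each). Its place in the pooled order thus held in neither group: its mean was above those of Nr4a2 (19.5) and Nfatc3 (19) in the WT group, and below that of Egr2 (15.7) and close to that of Egr1 (11.8) in the KO group. The order depended on the length used: by the median transcript Nr4a1 led at 85.5 CPM per kb, by the longest transcript Nfatc3 led at 40.9, and Egr3 was last under all 3 lengths.

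Genes of the same pathway that were not among the 10 were read in 6 lists of 83 genes, of which 80 passed the filter. None was called by edgeR at an adjusted p under 0.05, and 8 were higher and 10 lower at an unadjusted p under 0.05, against 6.98% and 7.52% of all genes. DESeq2 called 5 of them, 1 higher and 4 lower, against 4.35% of all genes it tested. The same shares stand as background to the counts of each list. The list of other family members and Egr co-repressors held 8 genes, of which Nfatc4 and Tox3 were near 0 and not tested. Nfat5, the member that responds to osmotic stress and lacks calcineurin control, was at 105, 105 and 111 CPM with WT Tconv and at 88.2, 84.9 and 90.7 CPM with HP1α KO Tconv. Its log2 fold change was -0.28 in edgeR (adjusted p = 0.209) and -0.29 in DESeq2 (adjusted p = 0.0296). Without WT replicate 3, DESeq2 gave -0.26 with an adjusted p of 0.0979. Nab2, a co-repressor that binds Egr proteins, was higher in every KO library, at 43.7, 51.9 and 45.7 CPM against 39.6, 36.8 and 37.2 CPM, a log2 fold change of 0.32 (adjusted p = 0.209 in edgeR, 0.059 in DESeq2). Tox4 was at -0.16 on the log2 scale (adjusted p = 0.377 in edgeR) and at -0.09 without KO replicate 3.

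In the calcium and calcineurin list, 20 of 21 genes were tested, 2 were higher and 2 lower at an unadjusted p under 0.05, the median log2 fold change was 0.02 and DESeq2 called none. Its named genes were the calcium channel subunit Orai2 at 0.22, calmodulin Calm2 at -0.24 and the calcineurin catalytic subunit Ppp3ca at -0.19. Of the 7 kinases that phosphorylate NFAT and send it out of the nucleus, 1 was higher and 2 were lower at an unadjusted p under 0.05, none at an adjusted one in edgeR, with log2 fold changes of 0.16 for Gsk3a, -0.17 for Dyrk1a and -0.24 for Csnk1e. DESeq2 called none of these 7 either.

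The 17 genes upstream of the Egr and Nr4a promoters included 3 of the 5 DESeq2 calls. Srf alone was still called without WT replicate 3, while the log2 fold changes of the others stayed about as large. In edgeR, 2 of the 17 were higher and 3 lower at an unadjusted p under 0.05, and the median log2 fold change was -0.03. Srf, the factor that binds CArG boxes such as that of Egr2, was at 41.8, 42.5 and 42.4 CPM with WT Tconv and at 51.4, 53.1 and 53.5 CPM with HP1α KO Tconv. The replicates of each group were tight and apart, with a log2 fold change of 0.32 (SE 0.0613), and the adjusted p was 0.0148 in DESeq2 (0.0364 without WT replicate 3) but 0.209 in edgeR. Atf1, a CRE-binding factor, was at 43.8, 40.7 and 45.1 CPM against 35.4, 33.8 and 34.7 CPM, a log2 fold change of -0.32 (adjusted p = 0.0265 in DESeq2). For Atf1 without WT replicate 3, DESeq2 gave -0.29 with an adjusted p of 0.0982. Mef2d, a calcium-responsive factor known to drive Nr4a1, was at 125, 150 and 144 CPM against 118, 92.5 and 107 CPM, a log2 fold change of -0.40 (adjusted p = 0.0239 in DESeq2). For Mef2d without WT replicate 3, DESeq2 gave -0.38 with an adjusted p of 0.14. Neither Atf1 nor Mef2d passed edgeR, with an adjusted p of 0.209 for both.

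Among 18 other genes of the TCR response, 1 was higher and 1 lower at an unadjusted p under 0.05, and 9 had a log2 fold change above 0 and 9 below. Bhlhe40, a transcription factor that governs cytokine output, was the one that DESeq2 called. It was at 1424, 1409 and 1606 CPM in the WT group and 1125, 751 and 670 CPM in the KO group, or -0.80 on the log2 scale (SE 0.197), and the adjusted p was 0.000291 in DESeq2 (0.0264 without WT replicate 3) but 0.21 in edgeR. Cd5, which tracks TCR signal strength in thymocytes, had a log2 fold change of 0.20, and the costimulatory receptor Icos one of -0.20. That of Icos was -0.08 without WT replicate 2 and -0.32 without WT replicate 3, and that of Cd5 was 0.12 without WT replicate 3 and KO replicate 2 together.

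The last list held 12 immediate early and heat shock genes that cell handling can induce, with 1 gene higher and 1 lower at an unadjusted p under 0.05, a median log2 fold change of -0.08 and no call by DESeq2. Fos was at 385, 394 and 402 CPM with WT Tconv and at 418, 476 and 560 CPM with HP1α KO Tconv, or 0.30 on the log2 scale (adjusted p = 0.263 in edgeR) and 0.18 without KO replicate 3. Dusp1, a MAP kinase phosphatase, was at -0.22 and Klf6 at -0.19 on the log2 scale, with Dusp1 at -0.11 without WT replicate 3 and KO replicate 2 together. The heat shock gene Hspa1a, named after its values were seen, was at 30.6 CPM in WT replicate 3, the library highest in Nr4a3, and at 1.24 to 5.86 CPM elsewhere. The list did not follow 1 library. WT replicate 3 was also highest in Hspa1b, Dnajb1, Atf3 and Dusp1. Fos, Fosb and Zfp36 were highest in KO replicate 3, the library lowest in Nr4a3. Jun, Junb and Btg2 were highest in KO replicate 2, and Klf6 in WT replicate 2. Whether handling had a part in the Nr4a values was not tested.

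**Figure D4:**
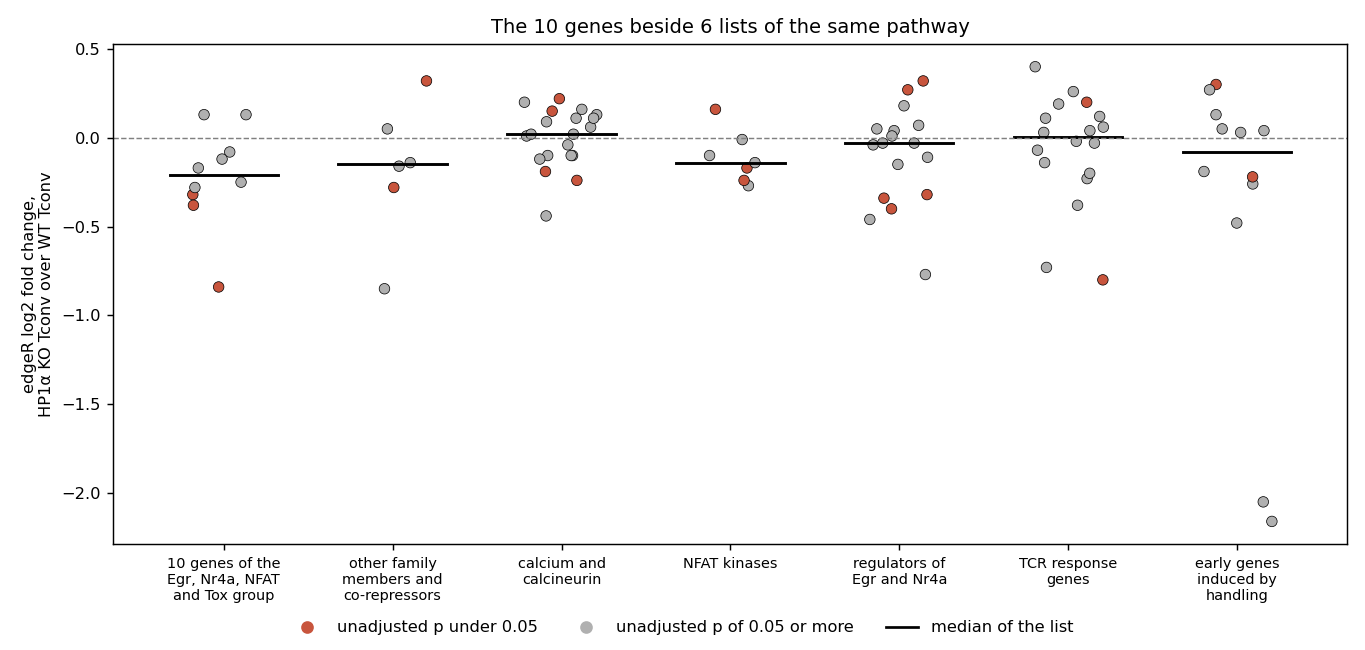
EdgeR log2 fold change (vertical axis, KO group over WT group) of the 10 genes and of the tested genes of 6 lists of the same pathway; points are genes, red at an unadjusted p under 0.05, and bars are medians. The median of the 10 genes is -0.21 (-0.11 without KO replicate 2) and those of the lists run from -0.15 to 0.02; both points near -2 are Hspa1a and Hspa1b.

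Finally, the genes whose log2 CPM ran most like Nr4a3 over the 6 libraries were sought among 10209 genes with a mean of at least 5 CPM. They were Ipmk, an inositol phosphate kinase (Pearson r = 0.996), the mTORC1 activator Rheb (0.993), Rab11fip1, Fam133b and the anti-proliferative gene Tob1 (0.992 each). Their own log2 fold changes were smaller, from -0.45 for Tob1 to -0.22 for Rheb. For Nfatc1, the gene highest per kb of exon, they were Hibadh and Rnf6 (0.997), Pmpca and Map4k4 (0.996) and Fnbp1 (0.994), all with their lowest value in KO replicate 2. With 6 libraries and this many genes searched, high coefficients arise readily, and they are given as a description of the profile without a test.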

How the data were processed

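Total RNA was sequenced as TruSeq stranded paired-end libraries. According to their methods and processing notes, the authors trimmed reads, aligned them to GRCm39 with STAR and quantified genes of an Ensembl annotation with Salmon. What was deposited are Salmon's estimated counts, held as whole numbers and not normalized by the authors. Salmon shares ambiguous reads between genes by a model. The deposited table held 29199 genes.

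All genes were tested with edgeR 4.0.16 in R 4.3.3 (TMM, filterByExpr, legacy quasi-likelihood F-test with robust = TRUE, group as sole term), which kept 18321 genes, with Benjamini-Hochberg adjustment over all of them. CPM are counts over the TMM-scaled total, times 1000000, and log2 CPM used a prior count of 2. Standard errors were the log2 fold change over the root of F. Ratios were compared by two-sided exact permutation tests. DESeq2 1.42.0, limma-voom (limma 3.58.1), other scalings and filters, a replicate block and leave-outs were alternatives. Genes were called here on an adjusted p under 0.05 alone. The authors, who used DESeq2, also asked for an absolute log2 fold change above 1, which Nr4a3 at -0.84 did not reach. Another pair was added after seeing the data: DESeq2 without WT replicate 3, and edgeR without WT replicate 3 and KO replicate 2.

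The members, lists and tests were chosen with earlier results of these data known. All 10 members were named. In each list, genes past the adjusted threshold or, failing that, the 3 with the smallest unadjusted p were named, and for the member with the smallest p and that with the highest level per kb the 5 most similar genes. The CRE half-site was added to the motifs after the sequences had been read. Exons and starts came from GENCODE vM39, also on GRCm39, which matched 28854 identifiers. The promoter of 1 member is not reported here. Scripts were tested on simulated data.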

Additional observations from a re-analysis of the deposited data

How the results depend on the processing

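The log2 fold changes of the 10 genes and 18 named pathway genes gave 476 results under alternatives, of which 464 kept their direction and their side of an adjusted p of 0.05, 10 passed it under DESeq2 with or without WT replicate 3, and 2 changed sign. Leaving out each library in turn moved Nr4a1 from -0.18 to 0.03 (the latter without KO replicate 3) and Nfatc1 from -0.19 to 0.01 (the latter without KO replicate 2). Over all genes, edgeR called 0, against 526 by DESeq2, 1 with upper quartile scaling, 38 with no filter beyond 1 count, 0 to 2 with each library left out (1 without WT replicate 2, 2 without KO replicate 1), 181 by DESeq2 without WT replicate 3 and 15 by edgeR without WT replicate 3 and KO replicate 2 together. Of the 10 genes, DESeq2 called 1 and, without WT replicate 3, 2 (Nr4a3 and Egr1). Of the lists, it called 5 and, without that library, 2 (Srf and Bhlhe40). The log2 fold changes of Nfat5, Atf1 and Mef2d in DESeq2 were then -0.26, -0.29 and -0.38, against -0.29, -0.32 and -0.40 with all libraries. The number of the 10 genes whose groups did not overlap was 3, and ran from 3 to 6 with each library left out (5 without WT replicate 3, 6 without KO replicate 1) and was 6 without both libraries. List genes at an unadjusted p under 0.05 numbered 18, ran from 11 (without WT replicate 1) to 24 (without KO replicate 2), and were 28 without both libraries. Groups of fewer libraries overlap less often by construction, and the other causes were not tested. With all libraries, the groups did not overlap for 23% of all genes, and 14.5% were at an unadjusted p under 0.05 in edgeR. The matching shares of all genes without a library are not given here, so the moved counts have no background and are not read as a result. Of the 10 places in the order per kb, 4 were kept with the median and 4 with the longest transcript length.

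The replicate numbers showed no clear pairing of the samples. Correlations of same-numbered deviations from the group means were -0.042, 0.182 and 0.117, against -0.218 to 0.121 for libraries of different numbers. Not every library correlated best with its own number. With 3 libraries a group, these values cannot exclude a pairing. With the replicate number as a block, edgeR called 1 gene over all, 0 of the 10 and 0 of the lists, and Nr4a3 was at -0.85 with an adjusted p of 0.415. Depth was not limiting for the 10 genes, at 1028 counts or more, and 3 libraries a group limit the precision.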
